A study of Mus musculus with 42 samples.

Results

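Conventional CD4+ T cells (Tconv) from the spleen were compared 2 h after an intravenous injection of KT3, an antibody against CD3, with the same cells of mice that were not treated. The comparison holds 4 of the 42 arrays of the series, 2 at 2 h and 2 at 0 h, chosen by the cell type, setting and time in their labels and matched by the array number in the labels. All 4 arrays came from NOD females, a strain prone to autoimmune diabetes, aged 8 weeks and carrying the Foxp3-IRES-GFP reporter, in which cells that express Foxp3, the defining factor of regulatory T cells (Treg), are green. Tconv were sorted as B220-, CD8a-, CD11b-, CD11c-, CD4+ and GFP- cells. At both times the array of number 1 came from single-sorted cells and that of number 2 from double-sorted cells, so that in these 4 arrays the number and the sort cannot be told apart. The study also measured Treg, times of 8, 24 and 72 h, and 1 Tconv and 1 Treg array 24 h after rat IgG, all at 8 weeks. A culture experiment used mice of 9 weeks for number 1 and 14 weeks for number 2. No control antibody was measured at 2 h, so the 0 h group lacks the injection itself. The 2 arrays of a group bear different numbers, but the labels do not say that they came from different mice. P-values here thus reflect the spread between arrays of a group, pooled over the 22 in vivo arrays of the model. That spread may be technical.

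CD3 passes the signal of the T cell receptor into the cell, and an antibody against it stimulates T cells whatever peptide their receptor recognises. The signal runs through calcium to the factor NFAT, through MAP kinases to the AP-1 and Egr factors, and through protein kinase C to NF-kB. Together these factors switch on the immediate early genes, interleukin-2 and its receptor, and then the genes that a resting cell needs to grow before it divides.

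Levels are log2 intensities, and changes are log2 differences of 2 h minus 0 h. The standard error (SE) is that of a limma model over the 22 in vivo arrays. The groups compared have n = 2 arrays each, while the rat IgG groups of the model have 1 array each. The model holds the array number as a block, and calls were made where the adjusted p lay under 0.05. Values of a pair of arrays are given in the order number 1, number 2. Medians of the 4 arrays lay between 96.5 and 103.3 in intensity. The 2 h array of number 1 correlated least with the mean of the other in vivo arrays, at 0.964, against 0.980 to 0.985 for the other 3. The sorted cells expressed the genes that define them. Cd4 stood at 11.27 and 11.43 at 2 h and at 11.59 and 11.67 at 0 h, and Cd3e, a chain of the CD3 complex, at 11.36 on both 2 h arrays and at 11.46 and 11.48 at 0 h. Foxp3 stood at 7.06 and 7.09 at 2 h and at 7.73 and 7.72 at 0 h, against 11.67 to 12.22 on the Treg arrays of the same times. The change of Foxp3 in Tconv, -0.65 ± 0.26, was not called (adjusted p = 0.121).

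Number 1 held more RNA of several other cell types at both times. Over 63 markers of 9 other cell types the mean level was 6.45 and 5.63 at 2 h and 6.28 and 5.63 at 0 h. Number 1 was higher than number 2 by 0.82 ± 0.12 (SE over markers) at 2 h and 0.65 ± 0.09 at 0 h. Markers on the same arrays are not independent, so that SE does not measure how arrays vary. At each time 54 of the 63 markers were higher on number 1. On number 1 the mean of the macrophage and monocyte markers changed by 0.42, that of the neutrophil markers by 0.43, that of the erythroid markers by 0.28 and that of the platelet markers by 0.26. On number 2 the same means changed by 0.03, -0.09, -0.05 and 0.09. In these lists 9 of 10, 6 of 9, 7 of 7 and 4 of 6 markers were higher at 2 h on number 1. On number 2 the counts were 6, 3, 4 and 4. The B cell, plasma cell and CD8 T cell means changed on number 1 by 0.14, 0.03 and 0.02. The dendritic cell and NK cell means changed there by -0.11 and -0.23. On number 2 these means changed by -0.01, -0.02, -0.19, 0.04 and 0.05. Dendritic cell markers had means of 5.62 and 5.59 at 2 h, so they hardly differed between the numbers. The platelet mean on number 1 rested on Ppbp (1.18), while the other platelet markers changed there by -0.13 to 0.31. Lyz2, the lysozyme of myeloid cells, stood at 8.50 and 4.75 at 2 h and at 8.38 and 5.15 at 0 h. The platelet chemokine Ppbp stood at 7.88 and 4.48 at 2 h and at 6.70 and 4.57 at 0 h. Both genes were thus high on number 1 and low on number 2, and Ppbp was higher at 2 h than at 0 h only on number 1. NK cell markers had means of 4.34 and 4.36 at 2 h and of 4.57 and 4.30 at 0 h. Of the 41 markers that passed the brightness filter, limma called 0, with 1 (Mpeg1, a macrophage gene) at an unadjusted p under 0.05. That filter counted all in vivo arrays, so some of the 41 lay below the array median on all 4 arrays compared. Ltf stood at 5.71 and 5.40 at 2 h and at 5.61 and 5.41 at 0 h. Gzma stood at 5.76 and 5.23 at 2 h and at 6.05 and 5.09 at 0 h. RMA can shrink a change at such levels, so the absence of calls says little for such markers. Other groups label the sort otherwise. Tconv at 8 h are labelled double-sorted on number 1 and single-sorted on number 2, and their marker means were 6.18 and 5.45. Treg at 24 h are labelled single-sorted on both, with means of 6.24 and 5.53. The gate removed B220+, CD8a+, CD11b+ and CD11c+ cells, and the part that RNA of other cells has in the results below was not tested.

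**Figure D1:**
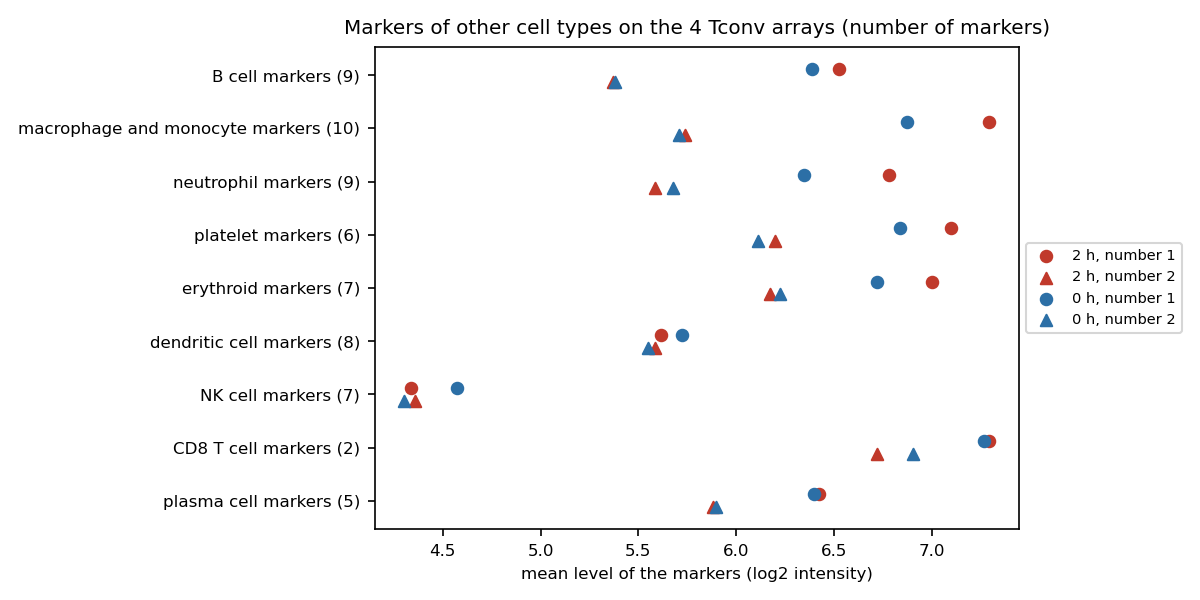
Mean level (log2 intensity) of the markers of 9 other cell types on the 4 arrays: 2 h in red, 0 h in blue, number 1 as circles, number 2 as triangles. B cell, macrophage, neutrophil, platelet and erythroid means lie to the right on number 1, and on number 1 the macrophage and neutrophil means are higher at 2 h by 0.42 and 0.43.

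The promoters of 5 genes of the response are shown because NFAT and AP-1, named above, act on such sequences. They run from 250 bases before to 50 after the start of the gene, and are taken from RefSeq on GRCm38.p6. Capitals mark matches, on either strand, to TGACG (the half-site of the cyclic AMP response element, CRE), TGANTCA (AP-1), GGAAA (the core of NFAT sites) and TATAA. The CRE half-site and TATAA were marked beside the sites of NFAT and AP-1, while sites of Egr factors and NF-kB were not marked.

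Il2: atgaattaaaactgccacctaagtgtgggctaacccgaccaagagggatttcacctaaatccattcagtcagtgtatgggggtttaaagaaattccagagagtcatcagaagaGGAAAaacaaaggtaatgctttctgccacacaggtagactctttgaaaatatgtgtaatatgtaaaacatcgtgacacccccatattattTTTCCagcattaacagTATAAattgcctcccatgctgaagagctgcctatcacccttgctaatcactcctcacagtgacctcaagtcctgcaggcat

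Tnf: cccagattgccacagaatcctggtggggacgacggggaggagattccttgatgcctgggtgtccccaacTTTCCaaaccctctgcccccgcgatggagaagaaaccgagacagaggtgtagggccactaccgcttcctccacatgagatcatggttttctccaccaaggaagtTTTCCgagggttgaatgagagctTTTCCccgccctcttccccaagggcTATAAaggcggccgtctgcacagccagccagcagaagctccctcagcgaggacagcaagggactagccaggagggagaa

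Nr4a1: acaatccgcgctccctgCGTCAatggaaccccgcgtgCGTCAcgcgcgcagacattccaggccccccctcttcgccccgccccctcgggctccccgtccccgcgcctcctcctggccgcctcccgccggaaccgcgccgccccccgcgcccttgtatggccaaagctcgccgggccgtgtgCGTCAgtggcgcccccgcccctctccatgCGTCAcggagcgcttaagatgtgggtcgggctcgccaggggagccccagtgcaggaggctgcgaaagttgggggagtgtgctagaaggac

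Nr4a3: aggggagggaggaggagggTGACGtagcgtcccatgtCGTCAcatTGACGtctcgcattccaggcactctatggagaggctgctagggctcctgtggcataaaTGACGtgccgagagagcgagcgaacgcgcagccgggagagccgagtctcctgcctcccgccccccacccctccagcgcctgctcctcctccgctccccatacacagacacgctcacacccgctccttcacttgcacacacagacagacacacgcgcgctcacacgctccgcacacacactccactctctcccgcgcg

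Egr2: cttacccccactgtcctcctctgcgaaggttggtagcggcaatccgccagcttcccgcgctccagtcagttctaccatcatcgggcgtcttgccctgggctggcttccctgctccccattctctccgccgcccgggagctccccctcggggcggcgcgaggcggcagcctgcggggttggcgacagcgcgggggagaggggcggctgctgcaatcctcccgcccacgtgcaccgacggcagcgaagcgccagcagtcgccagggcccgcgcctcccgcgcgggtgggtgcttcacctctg

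The Il2 window, chr3:37125905-37126204 on the minus strand, held 2 NFAT cores and a TATAA match. The Tnf window, chr17:35201958-35202257 on the minus strand, held 3 NFAT cores and a TATAA match. Nr4a1 (chr15:101266596-101266895, plus strand) and Nr4a3 (chr4:48045055-48045354, plus strand) held 4 CRE half-sites each and none of the other motifs. The Egr2 window (chr10:67535249-67535548, plus strand), which is the first of 5 starts in the table, held none of these letters. Among the 282 promoters of the genes called higher by at least 2-fold, 64.2% held an NFAT core, 37.6% a CRE half-site, 17.7% TATAA and 6.03% the AP-1 letters. Among the 38 promoters of the genes called lower by at least 2-fold the shares were 36.8%, 34.2%, 23.7% and 5.26%. Among the 9244 promoters of all genes tested they were 58.4%, 31.9%, 13% and 4.73%. Among all 27025 promoters of the table they were 61.3%, 21%, 25.5% and 7.93%. These are matches of letters and were not tested.

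At 2 h Tconv had raised 949 genes (8.23% of the 11536 tested) and lowered 779 (6.75%), so that 1728 (15.0%) were called by limma. Rises were larger than falls. Among called genes 349 were higher and 49 lower by at least 2-fold, 47 were higher and 0 lower by at least 4-fold, and 9 were higher by at least 8-fold. The median change was -0.06 over all genes tested and the median size of a called change 0.72. Of the called genes 54.9% were higher, 66.9% after median centring and 49.2% after quantile normalization, which moved the median of all genes to -0.03 and -0.04. The share also turned with the model: it was 44.4% with the number as a block within each cell type (1444 higher and 1810 lower), 45.5% on the Tconv arrays alone (1314 and 1576) and 86.5% over all 42 arrays without a block (386 and 60). The groups did not overlap for 917 of the called rises and 767 of the called falls. Over all genes tested both 2 h arrays lay above both 0 h arrays in 17.1% and below them in 25.7%. Without an array number as a block 1119 genes were called, and without the 2 h or 0 h array of number 1, or the 0 h array of number 2, the counts were 667, 744 and 877. Of the 1728 calls, 527 (403 higher and 124 lower) were made without each of the 4 arrays in turn, and 308 of the 398 calls of at least 2-fold.

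Among the largest rises was that of Irf4, a transcription factor of activated lymphocytes. Irf4 stood at 11.48 and 11.27 at 2 h, against 6.54 and 6.55 at 0 h, a rise of 4.83 ± 0.19 (limma, adjusted p = 9.24e-09). The 2 h arrays lay far above those at 0 h, which were below the array median, and the numbers differed little. Il2ra, the alpha chain that gives the interleukin-2 receptor its high affinity, stood at 10.50 and 10.38 at 2 h and at 6.23 and 5.52 at 0 h, a rise of 4.56 ± 0.30 (adjusted p = 1.39e-06). Without the 0 h array of number 1 the rise of Il2ra was 5.10 and that of Irf4 4.83, so that their order rests on that array. The orphan nuclear receptor Nr4a3 stood at 10.87 and 11.04 at 2 h and at 6.66 and 6.60 at 0 h (4.33 ± 0.34, adjusted p = 4.18e-06). Nr4a1, or Nur77, a common reporter of receptor signalling, stood at 12.97 and 12.90 at 2 h and at 9.26 and 8.82 at 0 h (3.89 ± 0.32, adjusted p = 6.98e-06). For each of these genes both 2 h arrays lay above both 0 h arrays by more than 3 log2 units.

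Other large rises were those of Sema7a, a membrane semaphorin (3.92 ± 0.22), Gadd45b, a stress-response gene that feeds p38 kinase signalling (3.48 ± 0.25), and Irf8, a relative of Irf4 (3.45 ± 0.18). Mfsd2a, a transporter of lysolipids, rose by 3.10 ± 0.25, and Cd69, an early surface marker that keeps T cells in lymphoid organs, by 3.08 ± 0.24. Tbx21, which encodes T-bet, the factor of type 1 helper cells, rose by 2.96 ± 0.20. The transferrin receptor gene Tfrc rose by 2.76 ± 0.34, Tnip3 by 2.49 ± 0.35, the granzyme gene Gzmb by 2.47 ± 0.30 and the kinase gene Map3k8 by 2.44 ± 0.13. The 20 largest rises were chosen by their size and by agreement of the numbers on these same arrays, which favours what follows. None of the 20 overlapped between the groups, and all 20 were called without each of the 4 arrays in turn and without the block. The smallest of them, that of the cytokine gene Lif, was 2.91 on number 1 and 1.95 on number 2.

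**Figure D2:**
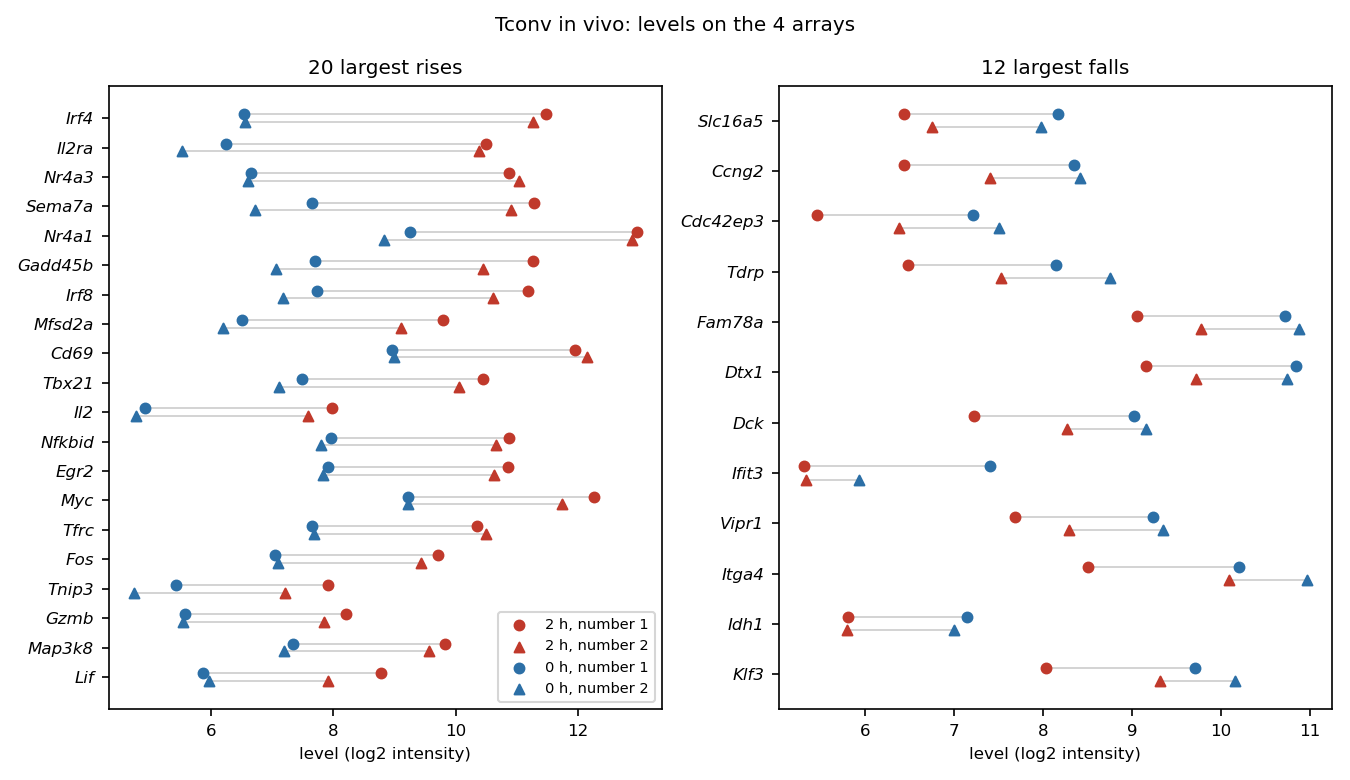
Levels (log2 intensity) of the 20 genes with the largest called rise and the 12 with the largest called fall, with 2 h in red, 0 h in blue, number 1 as circles and number 2 as triangles, and grey lines joining arrays of 1 number. Irf4 stood at 11.48 and 11.27 at 2 h and at 6.54 and 6.55 at 0 h, while most falls, such as that of Ccng2, were larger on number 1.

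Falls were smaller and their sizes differed more between the numbers. Slc16a5, of the monocarboxylate transporter family, stood at 6.44 and 6.75 at 2 h and at 8.17 and 7.98 at 0 h, a fall of -1.48 ± 0.17 (adjusted p = 9.15e-05). In sorted bulk RNA fewer cells with a transcript and less of it per cell cannot be told apart. Ccng2, an atypical cyclin of resting cells, stood at 6.44 and 7.40 at 2 h and at 8.35 and 8.41 at 0 h (-1.46 ± 0.26, adjusted p = 0.00211). Tdrp (-1.44 ± 0.20), Fam78a (-1.38 ± 0.20), the Notch ligase gene Dtx1 (-1.36 ± 0.21), the receptor of vasoactive intestinal peptide Vipr1 (-1.31 ± 0.22) and the isocitrate dehydrogenase gene Idh1 (-1.27 ± 0.17) fell too. These 7 genes were called without each of the 4 arrays in turn. The calls of Cdc42ep3 (-1.44 ± 0.27), of Dck, a kinase of nucleoside salvage (-1.34 ± 0.28), and of the transcription factor gene Klf3 (-1.26 ± 0.24) were lost without the 2 h array of number 1. The values were then -0.98, -0.83 and -0.79 (adjusted p = 0.0512, 0.0887 and 0.0513). Itga4, the integrin alpha 4 chain (-1.28 ± 0.35, adjusted p = 0.0225), lost its call without the 2 h array of number 1 (-0.68), without either 0 h array (-1.43 and -1.14) and without the block (adjusted p = 0.0992). The interferon-induced gene Ifit3 (-1.34 ± 0.42, adjusted p = 0.0481) stood at 5.31 and 5.34 at 2 h and at 7.40 and 5.93 at 0 h. Its fall was thus larger on number 1, where its 0 h level was high, and the call was lost without the 2 h array of number 1 (-0.87) and without either 0 h array (-0.97 and -1.70), and it was not called without the block (adjusted p = 0.242).

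The members of 33 gene lists were counted to order the response by function. They held 468 genes tested, of which 208 rose and 30 fell (238 called, 198 without the block). Members can stand in more than 1 list. The shares over all genes tested, 8.23% higher and 6.75% lower with a median change of -0.06, are the background for each count below.

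Immediate early transcription factors were mostly raised: 14 of 21 rose, Klf6 fell and 6 were not called, with a median change of 1.30. Egr2, a zinc finger factor that NFAT induces, stood at 10.86 and 10.64 at 2 h and at 7.92 and 7.83 at 0 h (2.88 ± 0.28, adjusted p = 2.14e-05). Myc, which drives growth of activated lymphocytes, stood at 12.27 and 11.74 at 2 h and at 9.22 and 9.23 at 0 h (2.78 ± 0.29). Both were well apart between the groups. Of the AP-1 subunits Fos (2.51 ± 0.29), Fosl2 (2.38 ± 0.22) and Junb (1.30 ± 0.19) rose, while Jun, at 7.24 and 7.01 at 2 h and 6.58 and 7.56 at 0 h, moved up on number 1 and down on number 2 (0.06 ± 0.39, adjusted p = 0.957). Egr1 (2.15 ± 0.22) and Egr3 (1.92 ± 0.19) rose with Nab2, a corepressor of Egr factors (1.32 ± 0.18). Klf6, at 8.07 and 8.42 at 2 h and 8.66 and 9.23 at 0 h, fell by 0.70. That call did not hold without any 1 of the 4 arrays (-0.52 to -0.89) or without the block (adjusted p = 0.114). Of inducible lymphocyte factors 11 of 24 rose and 0 fell, with 0 also lower at an unadjusted p under 0.05 in limma, and a median of 0.63. Besides Irf4, Irf8 and Tbx21 these were led by Bhlhe40 (1.95 ± 0.26), Gfi1 (1.92 ± 0.19), Batf, a partner of Irf4 on DNA (1.74 ± 0.18), and the hypoxia factor Hif1a (1.69 ± 0.21). Gata3 (-0.06 ± 0.14), Prdm1 (0.08 ± 0.16), Bach2 (-0.03 ± 0.22) and Id2 (0.01 ± 0.14) were not called.

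Of 15 NF-kB subunits and inhibitors 11 rose, with a median of 1.13. Nfkbiz (0.78), Nfkbie (0.29), Traf1 (0.29) and Tnip1 (-0.30) were not called, the last lower at an unadjusted p under 0.05. Nfkbid, which encodes a nuclear inhibitor-like cofactor needed for interleukin-2 transcription, rose by 2.89 ± 0.22, the deubiquitinase gene Tnfaip3 (A20) by 2.41 ± 0.16, Bcl3 by 1.74 ± 0.19 and the subunit gene Nfkb2 by 1.72 ± 0.15. Nfkbia, the main inhibitor and a target of NF-kB, stood at 11.74 and 11.49 at 2 h and at 10.23 and 10.13 at 0 h (1.44 ± 0.12). Of 11 MAP kinase phosphatases and Sprouty proteins, which dampen that branch, 5 rose with a list median of 0.50, among them Dusp2 (2.26 ± 0.20), Dusp5 (2.16 ± 0.24) and Spry1 (2.05 ± 0.20). The median of that list was 0.94 on number 1 and 0.17 on number 2. Of 11 SOCS and STAT5 feedback genes 4 rose: Cish (2.31 ± 0.23), Socs1 (1.66 ± 0.17), Pim1 (1.09 ± 0.14) and Pim3 (0.54 ± 0.16), the last lost without the 2 h array of number 1 (0.38), without either 0 h array (0.66 and 0.41) and without the block (adjusted p = 0.146). Of 9 regulators of mRNA decay 5 rose, led by Zfp36l1 (1.33 ± 0.16) and Zfp36 (1.01 ± 0.14), RNA-binding proteins that shorten the life of cytokine transcripts. Without the 2 h array of number 1 the 5 became 2, and without the block 3. Among 11 anergy-linked ligases and kinases Cblb (1.27 ± 0.18), Ptpn22 (1.01 ± 0.22, 0.78 and not called without the 0 h array of number 1) and Ndfip1 (0.88 ± 0.11) rose, and Dtx1 and Dgka fell. The call of Dgka (-0.53) was lost without the 2 h array of number 1 (-0.38), without either 0 h array (-0.50 and -0.57) and without the block (adjusted p = 0.0533), and the 5 calls of the list became 3 without the 0 h array of number 1.

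The cytokine genes Il2, Il21 and Ifng rose and had been dim at 0 h. Il2 stood at 7.98 and 7.58 at 2 h and at 4.91 and 4.76 at 0 h (2.95 ± 0.30, adjusted p = 2.59e-05). Il21, a cytokine of follicular helper cells, stood at 7.14 and 6.75 at 2 h and at 4.52 and 4.87 at 0 h (2.25 ± 0.19), and Ifng at 8.12 and 7.68 at 2 h and at 5.84 and 6.16 at 0 h (1.90 ± 0.21). Each was apart between the groups, but the 0 h levels lay below the array median, where RMA can shrink a change. Tnf stood at 11.05 and 10.65 at 2 h and at 8.67 and 8.78 at 0 h (2.13 ± 0.19, adjusted p = 9.62e-06). In all 8 of 15 cytokine genes tested rose and 0 fell (1 lower at an unadjusted p under 0.05 in limma), with a median of 0.78, and 5 further ones (Il3, Il5, Il6, Il17a and Csf2) were too dim to be tested. Of 6 chemokine genes 4 rose. Cxcl10, an interferon-induced chemokine that macrophages make as well, stood at 9.87 and 8.06 at 2 h and at 7.11 and 6.39 at 0 h (2.22 ± 0.36, adjusted p = 0.00102). Its 2 h level was high on number 1, where macrophage markers were high too, and its rise was 2.76 on number 1 and 1.67 on number 2. Xcl1 rose by 1.35 ± 0.23 and Ccl1 by 1.24 ± 0.22. Ccl3 (1.28 ± 0.32) lost its call without the 2 h array of number 2 (0.99) and without the 0 h array of number 1 (1.09).

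Among surface receptors the interleukin-2 system stood out by Il2ra. Of its 10 genes 5 rose, with a median of 0.54: Il2ra, Stat5a (1.19 ± 0.13), Il2rb (0.79 ± 0.19), Il4ra (0.61 ± 0.13) and Il21r (0.61 ± 0.12). The calls of Il2rb, Il4ra and Il21r were lost without the 2 h array of number 1 (0.74, 0.51 and 0.49). They were also lost without the 0 h array of number 2 for Il2rb (0.65) and Il21r (0.54), and of number 1 for Il4ra (0.61). The 5 rises became 2 without the 2 h array of number 1 and 3 without the 0 h array of number 2. Il7r, through which T cells receive survival signals, stood at 11.05 and 11.70 at 2 h and at 11.12 and 11.68 at 0 h (-0.02 ± 0.28, adjusted p = 0.973). Of 16 other cytokine receptor genes Il6st (1.15 ± 0.19) and Ifngr2 (0.68 ± 0.13) rose, Il17ra (-0.61 ± 0.12), Ifngr1 (-0.61 ± 0.19) and Tgfbr2 fell, and the median was -0.19. The call of Ifngr1 was lost without any 1 of the 4 arrays (-0.47 to -0.74) and without the block (adjusted p = 0.0755). Tgfbr2 (-0.39) was not called without the 2 h array of number 1 (-0.34), without either 0 h array (-0.42 and -0.36) or without the block (adjusted p = 0.0576). Il17ra lost its call without the 2 h array of number 1 (-0.51) and Ifngr2 without the 0 h array of number 1 (0.53). The 5 calls of the list became 2 without either array of number 1 and 3 without the 0 h array of number 2 or without the block.

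Of 9 inhibitory receptor and ligand genes 8 rose, with a median of 1.09 and 0 lower at an unadjusted p under 0.05 as well. Pdcd1, which encodes PD-1, stood at 9.74 and 8.91 at 2 h and at 7.85 and 7.39 at 0 h (1.71 ± 0.17, adjusted p = 2.21e-05). Lag3 rose by 1.42 ± 0.24, Cd274, the ligand of PD-1, by 1.22 ± 0.25 and Btla by 1.14 ± 0.25. The 8 became 4 without the 2 h array of number 1 or the 0 h array of number 2, and 5 without the 0 h array of number 1. Only 2 of the 8 calls, those of Pdcd1 and Lag3, were made without each of the 4 arrays. Cd274 was not called without the 0 h array of number 2 (0.87), and Btla not without the 0 h array of number 1 (0.88) or the 2 h array of number 2 (1.00). Ctla4 stood at 8.31 and 7.42 at 2 h and at 7.20 and 6.34 at 0 h. Its groups were narrowly apart, since number 1 was high at both times. Its rise of 1.09 ± 0.32 lost its call without the 2 h array of number 1 (0.68) and the 0 h array of number 2 (0.70). Of 17 costimulation and activation markers 10 rose and Itgb1 fell (-0.77, and -0.58 and not called without the 2 h array of number 1), with a median of 0.54. Slamf1 stood at 9.89 and 9.87 at 2 h and at 7.61 and 7.40 at 0 h (2.38 ± 0.18). Icam1 rose by 1.36 ± 0.18 and Icos by 0.86 ± 0.14, while Cd28 did not pass (0.09 ± 0.15). Of 16 TNF superfamily genes 7 rose and Tnfrsf1a fell, with a median of 0.53. The call of Tnfrsf1a (-0.56) was lost without the 2 h array of number 1 (-0.50) and the 0 h array of number 2 (-0.50). Tnfrsf9 (4-1BB) rose by 2.05 ± 0.27, Tnfrsf4 (OX40) by 1.88 ± 0.27, Fasl by 1.71 ± 0.30 and Tnfsf8 by 1.24 ± 0.24, the last lost without the 0 h array of number 1 (0.94).

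Genes of homing and egress moved the other way. Of 11 tested 8 fell, Gpr183 rose and 2 were not called, with a median of -0.78. S1pr4 stood at 9.20 and 9.30 at 2 h and at 10.57 and 10.35 at 0 h (-1.21 ± 0.18, adjusted p = 0.000489). Ccr7, which leads naive T cells into lymph nodes, stood at 11.17 and 11.12 at 2 h and at 11.95 and 11.90 at 0 h (-0.78 ± 0.16, adjusted p = 0.00497). S1pr1, the receptor for exit from lymphoid organs, stood at 10.06 and 11.00 at 2 h and at 11.08 and 11.71 at 0 h (-0.86 ± 0.17, adjusted p = 0.00422). The groups were apart within each number, but the 0 h level of S1pr1 on number 1 was close to its 2 h level on number 2. The call of S1pr1 was lost without the block (adjusted p = 0.119), without the 2 h array of number 1 (-0.59) and without the 0 h array of number 2 (-0.77). Klf2, the factor that drives S1pr1 in resting T cells, fell by 0.68 and lost its call without the 2 h array of number 1 (-0.71) and without either 0 h array (-0.69 and -0.66). Selplg (-0.83 ± 0.15) fell too, and 4 of the 9 calls were made without each of the 4 arrays. The 8 falls became 4 without the 2 h array of number 1 and 5 without either 0 h array. Gpr183, a receptor for oxysterols that positions activated lymphocytes, stood at 10.83 and 10.63 at 2 h and at 9.09 and 9.36 at 0 h (1.50 ± 0.21). Of 9 inflammatory chemokine receptors Cxcr5 (1.75 ± 0.21) and Ccr8 (1.42 ± 0.20) rose and the median was -0.06. Of 20 quiescence regulators 7 fell and 0 rose (2 higher at an unadjusted p under 0.05), with a median of -0.31. The inhibitor gene Cdkn1b, which encodes p27, fell by 1.08, Elf4 by 0.68 and Tob1 by 0.89, and of these 7 calls that of Cdkn1b alone was made without each of the 4 arrays. The 7 falls became 2 without either array of number 1 and 3 without the 0 h array of number 2. Elf4 was not called without the 0 h array of number 1 (-0.57) and Tob1 not without the 2 h array of number 1 (-0.78).

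Genes that make ribosomes formed the most uniform list. Of 30 ribosome biogenesis genes 29 rose, with a median of 1.35, and 22 of the calls were made without each of the 4 arrays. Polr1b, a subunit of RNA polymerase I, stood at 10.32 and 9.83 at 2 h and at 8.26 and 7.99 at 0 h (1.95 ± 0.15, adjusted p = 3.54e-06). Rrp12 (1.87 ± 0.19), the nucleolar GTPase gene Gnl3 (1.85 ± 0.32) and Rrp1b (1.81 ± 0.19) followed. Ubtf, a factor that opens the ribosomal genes, was the member not called (0.06 ± 0.11). Supply for growth rose with them. Of 16 aminoacyl-tRNA synthetase genes 15 rose (median 0.73), with Tars at 1.33 ± 0.19. The 15 became 8 without the 2 h array of number 1, 9 without the 0 h array of number 1 and 9 without the block. Of 12 translation factors 9 rose (median 0.75), with Eif1a at 1.67 ± 0.23 and Eif5a, which needs a modification made from polyamine, at 1.37 ± 0.15. Of 14 genes of polyamine and nucleotide synthesis 10 rose (median 0.90). Odc1, the rate-limiting enzyme of polyamine synthesis, stood at 10.78 and 10.16 at 2 h and at 8.94 and 8.12 at 0 h (1.94 ± 0.18), and Srm, which makes spermidine, rose by 2.15 ± 0.23. Of 18 amino acid transport and ATF4 genes 10 rose and Trib3 fell (median 0.63), led by the transporters Slc7a5 (2.06 ± 0.20), Slc1a5 (1.79 ± 0.15) and Slc7a1 (1.72 ± 0.16). Of 13 heat shock and chaperonin genes 9 rose (median 0.76), with the mitochondrial chaperone gene Hspd1 at 1.47 ± 0.24. The 9 became 4 without the 2 h array of number 1 or the 0 h array of number 2, and 6 without the block.

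Other metabolic genes changed in part. Of 16 genes of glucose uptake and glycolysis 5 rose and the median was 0.25. Slc16a1, a lactate transporter, rose by 1.98 ± 0.18, the hexokinase gene Hk2 by 1.40 ± 0.19 and Pgam1 by 1.30 ± 0.17. Of 14 genes of cholesterol and fatty acid synthesis 5 rose and Scd2 fell by 1.22, with a median of 0.36. The 6 calls became 4 without the 2 h array of number 1. Cyp51 rose by 1.44 ± 0.25, and Mfsd2a, which led this list, carries lipids and does not make them.

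Few genes of DNA replication and none of mitosis were called. Of 17 DNA replication genes only Pcna was called (0.55 ± 0.14), a call lost without the 2 h array of number 1 (0.41) and without either 0 h array (0.56 and 0.53) and without the block (adjusted p = 0.126). The list median was 0.07. Of 15 mitosis genes limma called 0, with 0 higher and 1 lower at an unadjusted p under 0.05 and a median of -0.21. Bub1, the member that changed most, stood at 4.21 and 4.40 at 2 h and at 5.00 and 4.65 at 0 h (-0.52 ± 0.42). These levels lay below the array median on all 4 arrays, where RMA can shrink a change. Of 14 G1 cyclins, kinases and inhibitors 4 rose and 2 fell. Ccnd2, the cyclin D of lymphocytes, rose by 0.85 ± 0.16, and Cdk6 by 0.90 ± 0.22, the last lost without any 1 of the 4 arrays (0.82 to 0.98). The 6 calls became 2 without the 2 h array of number 1 or the 0 h array of number 2, and 3 without the 0 h array of number 1 or without the block. Of 12 Bcl2 family genes 3 rose with a list median of 0.00. Bcl2l11, which encodes the death-promoting BIM, rose by 1.84 ± 0.15, Bid by 1.11 ± 0.18 and Bcl2l1 by 0.89 ± 0.18, the last lost without the 2 h array of number 1 (0.65) and the 0 h array of number 2 (0.82).

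Proximal receptor genes, interferon genes and effector genes gave mixed counts. Of 17 genes of the receptor complex and its first kinases 4 rose and 2 fell, with a median of -0.11. Malt1 rose by 1.42 ± 0.28 and Zap70 by 0.71 ± 0.15, and Rasgrp1 (-0.85 ± 0.18) and Plcg1 (-0.65 ± 0.15) fell, but 0 of these 6 calls were made without each of the 4 arrays. The 6 became 2 without either array of number 1, and 3 without the 0 h array of number 2. Without the array that moved each most, Malt1 stood at 1.20, Zap70 at 0.46, Rasgrp1 at -0.63 and Plcg1 at -0.52. Of 19 interferon-stimulated genes 4 rose and Ifit3 fell. Of the 4, Cxcl10, Socs1 and Gbp5 (1.28 ± 0.20) were called without each array. Irf1 (0.70) was not called without the 2 h array of number 1 (0.61), without either 0 h array (0.75 and 0.64) or without the block (adjusted p = 0.0916). The list had a median of -0.36 on number 1 and 0.16 on number 2. Of 13 effector and cytotoxic genes Gzmb and Fasl rose and the median was -0.29. Gzmb stood at 8.20 and 7.84 at 2 h and at 5.57 and 5.53 at 0 h, well apart, whereas the memory-linked genes S100a4, S100a6 and Klrg1 were not called. Of 6 regulators of G protein signalling Rgs16 (2.00 ± 0.21) and Rgs1 rose and Rgs14 (-0.78 ± 0.13) fell. The rise of Rgs1, 1.17 ± 0.27, lost its call without either array of number 1 (1.17 and 1.01). Of the 14 genes of a further list, on Treg identity, Gpr83 (0.91 ± 0.17) and Ctla4 rose and the median was 0.11.

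**Figure D3:**
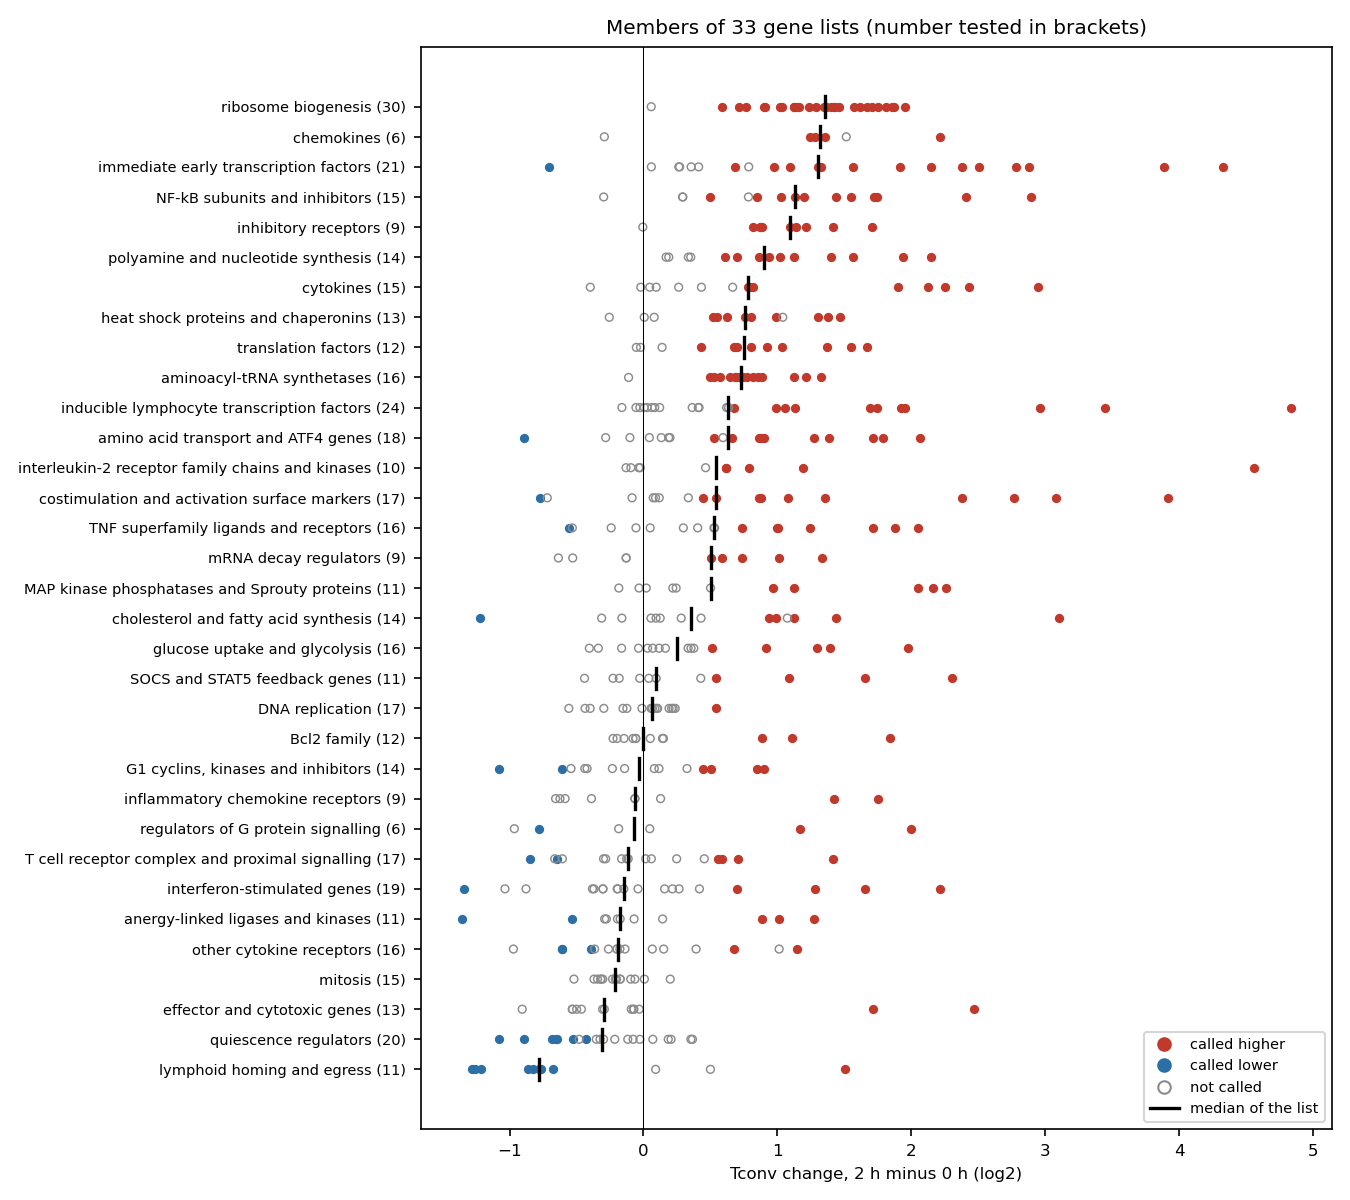
Change (log2, 2 h minus 0 h) of each tested member of 33 gene lists in Tconv, ordered by the median of the list (black bar), with called rises in red, called falls in blue and members not called as open circles. Ribosome biogenesis has 29 of 30 members called higher with a median of 1.35, and homing and egress 8 of 11 called lower with a median of -0.78.

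The numbers were then set side by side. Across the genes tested the change on number 1 and that on number 2 correlated at 0.806, as a description over genes that share the same 4 arrays. The change had an SD of 0.527 on number 1 and 0.417 on number 2. On number 1, 511 genes were higher and 197 lower by at least 2-fold, and on number 2, 282 and 22, with 253 and 17 on both. All 1728 called genes had the same direction on both numbers. A call favours this, since it needs a mean of the 2 changes that is large beside the spread.

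A rule of size picked genes that changed on number 1 alone, by at least 1 log2 unit there and by less than 0.3 on number 2, or in the opposite direction. It found 41 genes (0.355% of those tested), 26 higher and 15 lower, while the mirror rule found 1 on number 2, Eea1 (0.00867%). Among genes higher on number 1, Cxcl9 and Snord58b lay just inside the edge, at 0.28 and 0.27 on number 2, and Hilpda and Rps19bp1 just outside, at 0.31 and 0.32. Among genes lower on number 1, Atp8b4 and Tia1 lay just inside, at -0.297 and -0.289, and Phf11c and Ska2 just outside, at -0.302 and -0.336. On number 1 Mmp8 (1.01) was just inside and Chchd1 (0.97) just outside. Of the 26 higher genes, 4 belong to the lists of other cells: the neutrophil genes Retnlg, Lcn2 and S100a8 and the platelet gene Ppbp. The neutrophil list was not uniform. On number 1, 6 of its 9 markers were higher at 2 h, and Cxcr2 (-0.56), Csf3r (-0.31) and Camp (-0.23) were lower. At 2 h 25 of the 26 stood higher on number 1 than on number 2, by a median of 1.35, which follows from how they were chosen. At 0 h 16 of them did, by a median of 0.14, against 5978 of all 11536 genes.

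Cxcl9, a chemokine that interferon gamma induces in macrophages, stood at 8.70 and 6.10 at 2 h and at 5.96 and 5.81 at 0 h. Only the 2 h array of number 1 was high. In Treg of the same times its change was 3.36 on number 1 and 0.19 on number 2, the same split. Acod1, an enzyme of activated macrophages that makes itaconate, stood at 7.24 and 6.30 at 2 h and at 6.09 and 6.30 at 0 h, and changed in Treg by 1.75 on number 1 and -0.01 on number 2. Ctla2a stood at 7.76 and 4.95 at 2 h and at 6.16 and 4.97 at 0 h, so that it was higher on number 1 than on number 2 at 0 h too. The metallothionein gene Mt2 (1.16 and -0.18), Serpinb1a (1.63 and -0.27), Retnlg (1.20 and 0.06) and Rny1, a small RNA of Ro particles (1.42 and -0.20), rank with them by their changes on numbers 1 and 2. Over the 26 genes the median change in Treg was 0.84 on number 1 and 0.07 on number 2, and 11 were higher by at least 2-fold on number 1 in Treg, against 562 of all 11536 genes. Of the 26 limma called 4 higher in Tconv: Ptger2, Fpgs, Mrpl36 and Snord58b. Ptger2, a receptor of prostaglandin E2, stood at 7.24 and 6.84 at 2 h and at 5.98 and 6.62 at 0 h (0.74 ± 0.20, adjusted p = 0.0226), low on the 0 h array of number 1 alone, and lost its call without either array of number 1 (0.51 and 0.40). Fam136a likewise was low on that array alone, at 7.35 and 6.96 at 2 h and 5.93 and 6.91 at 0 h. Not all of the 26 kept the split in Treg. On numbers 1 and 2 Fam136a changed in Treg by 1.92 and 1.33, Fpgs by 1.14 and 1.00 and Mt2 by 1.8 and 0.8.

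Among the 15 genes lower on number 1 alone were interferon-induced genes. Ifit1 stood at 6.61 and 7.51 at 2 h and at 8.69 and 7.50 at 0 h, Oasl2 at 7.06 and 7.08 at 2 h and at 8.52 and 7.26 at 0 h, and Cmpk2 at 5.85 and 6.06 at 2 h and at 7.17 and 6.21 at 0 h. In each the 0 h array of number 1 was the highest, and for Ifit1 the 2 h array of number 1 was also low beside those of number 2. In Treg at 0 h they were higher on number 1 as well, with Ifit1 at 9.24 and 7.54, Oasl2 at 8.33 and 6.87 and Cmpk2 at 7.99 and 6.66. Zfp563 (-1.39 and -0.24) and Fcho2 (-1.14 and -0.28) were the other 2 of the 5 largest. None of the 15 was called, and 0 are markers in the lists of other cells. At 0 h 7 of the 15 stood higher on number 1 than on number 2 in Tconv, with a median difference of -0.08. In Treg at 0 h 14 of them did, against 7813 of all 11536 genes. Ifi208, also among the 15, stood at 5.27 and 7.04 at 2 h and at 6.40 and 7.28 at 0 h in Tconv, lower on number 1 at both times.

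**Figure D4:**
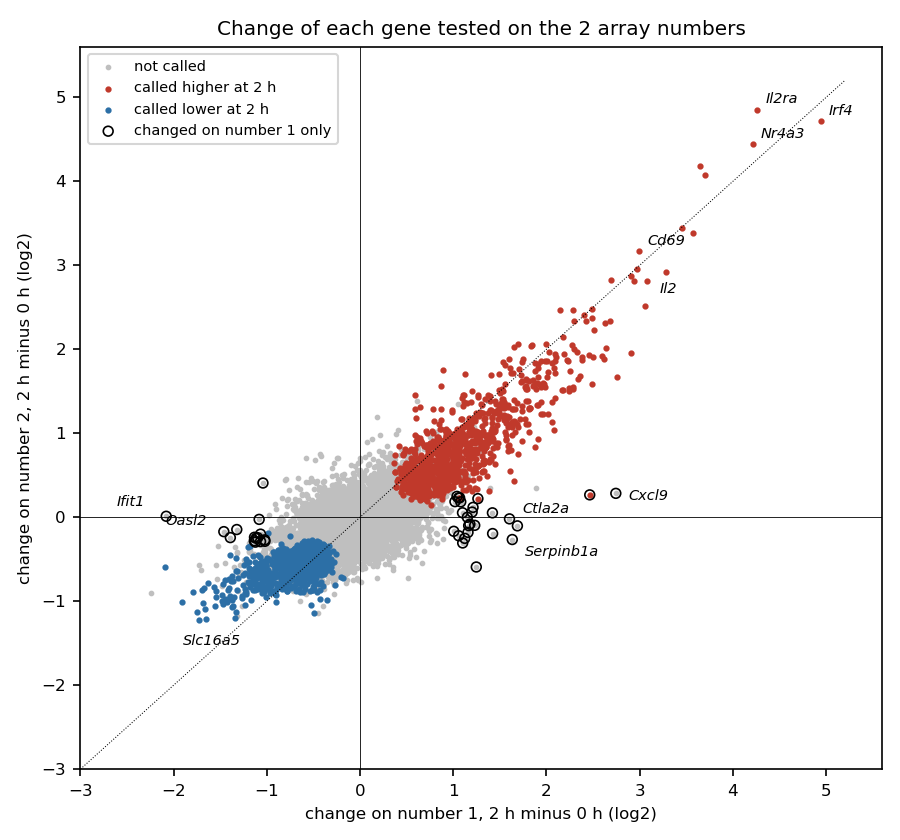
Change of each gene tested (log2, 2 h minus 0 h) on number 1 against that on number 2, with called rises in red, called falls in blue, genes not called in grey, and the 41 genes that changed on number 1 alone as open circles. Irf4 and Il2ra lie near the dotted line of equal change, and Cxcl9, at 2.74 on number 1 and 0.28 on number 2, lies far from it.

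Treg sorted at the same times served to show where the Tconv response differed. Limma called 2132 genes in Treg, 1287 higher (11.2%) and 845 lower (7.32%), and the difference of the responses for 25 genes (0.217%), with 16 positive and 9 negative as Tconv change minus Treg change, and with 630 at an unadjusted p under 0.05. The difference for Il2 was close in size to that for Il2ra. In Treg Il2 stood at 4.96 and 4.80 at 2 h and at 4.77 and 5.08 at 0 h, against its rise of 2.95 in Tconv, a difference of 2.99 ± 0.42 (adjusted p = 0.0122). Ifng stood at 6.07 and 5.99 at 2 h and at 6.14 and 6.24 at 0 h in Treg, a difference of 2.06 ± 0.29. Il2ra was already at 10.76 and 10.65 in Treg at 0 h and reached 12.23 and 12.37 at 2 h (1.59 ± 0.30), a difference of 2.96 ± 0.42. In the other direction the difference was -1.95 ± 0.27 for Socs2, a STAT5 feedback gene that stood at 5.75 and 5.31 at 2 h and 6.03 and 5.90 at 0 h in Tconv and rose by 1.51 ± 0.19 in Treg. Lif rose in both, by 2.43 ± 0.22 in Tconv and 4.19 ± 0.22 in Treg (-1.77 ± 0.31, adjusted p = 0.0351). The calls of the difference depended on single arrays: without each of the 8 arrays in turn between 0 and 26 genes were called, with 377 to 757 at an unadjusted p under 0.05. Without them the difference of Il2 ran from 2.64 to 3.34 (adjusted p = 0.0106 to 0.0757) and was called in 1 of 8 cases. That of Il2ra ran from 2.42 to 3.50 and was called in 2.

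Later times and the IgG array place the 2 h values. Of the 20 largest rises, 16 had their highest mean at 2 h among the 5 times, and Il2, Tnip3, Gzmb and Lif at 8 h. They were chosen for their change at 2 h, which favours that time: of all 949 called rises 276 had their highest mean at 2 h and 656 at 8 h. Irf4 averaged over both numbers 6.55 at 0 h and 11.38 at 2 h, and stood at 10.27 and 10.51 at 8 h, 8.34 and 8.75 at 24 h and 7.27 and 6.93 at 72 h. Il21 was still low at 2 h beside its level of 9.49 and 9.70 at 8 h. Of the 12 largest falls 3 (Dck, Idh1 and Klf3) had their lowest mean at 2 h, 8 at 8 h and Slc16a5 at 72 h, at 5.49 and 5.46. Of all 779 called falls 375 had their lowest mean at 2 h and 401 at 8 h. The array 24 h after rat IgG carries number 2. Set against the 0 h array of that number, the 20 genes changed there by -0.30 to 0.62 with a median of 0.08, while their median change at 2 h on number 2 was 2.90. The 12 falls changed by -0.50 to 0.27 with a median of 0.09 after IgG, against -1.04 at 2 h. That array has no replicate and a different time, so no test was made.

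**Figure D5:**
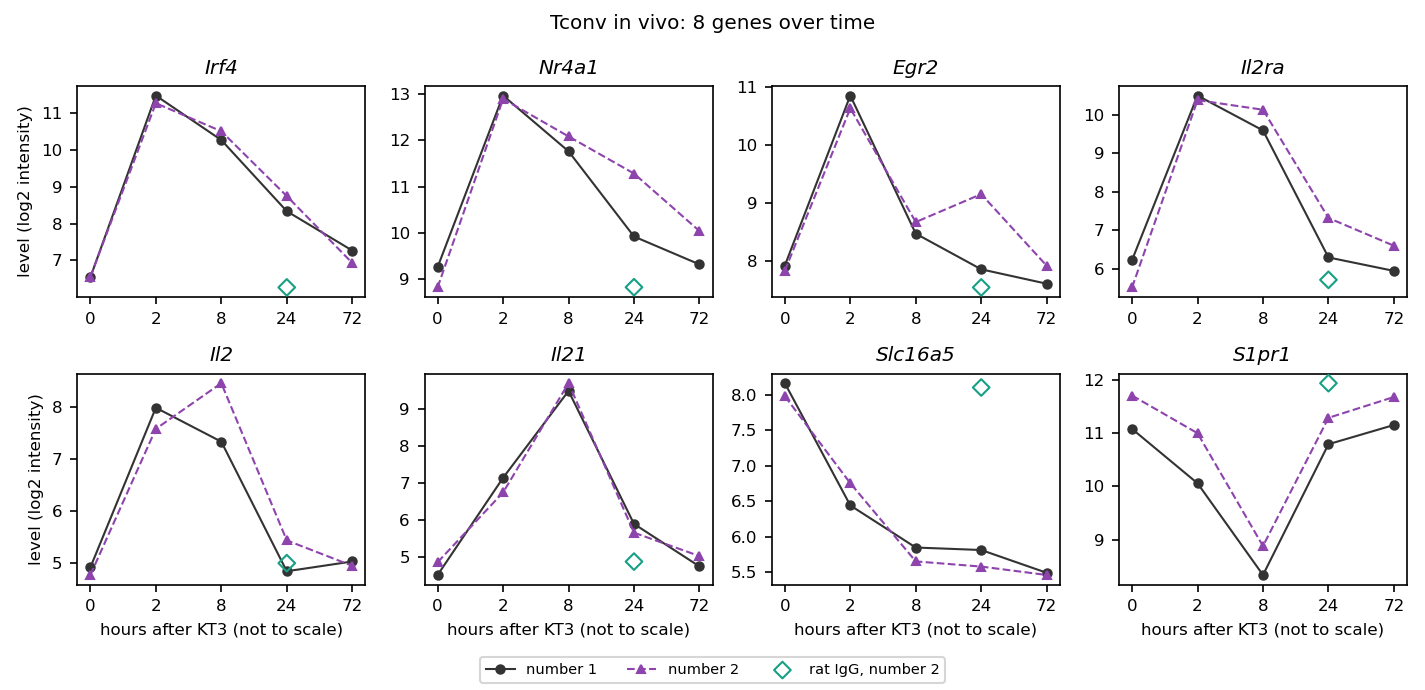
Levels (log2 intensity) of 8 genes in Tconv at 0, 2, 8, 24 and 72 h, number 1 as circles, number 2 as triangles, and the array 24 h after rat IgG as an open diamond; the time axis is not to scale. Irf4, Nr4a1, Egr2 and Il2ra are highest at 2 h, Il21 is highest at 8 h, S1pr1 is lowest at 8 h, and Slc16a5 stays below 7 after 0 h except on the IgG array at 8.11.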

How the data were processed

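RNA of sorted cells was measured on Affymetrix ST1.0 gene arrays, and the authors deposited linear intensities, with 1 value for each transcript cluster on each array. The submitters' processing notes name RMA and Affymetrix Power Tools without a version, and the series design text gives RMA in GenePattern. RMA shrinks changes of dim genes. The files give no detection calls, and the number of arrays limits the precision.

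The deposited intensities were taken to log2 with no offset. Of 24922 clusters 21425 had 1 symbol, 1399 had several and 2098 had none listed, and for 921 symbols with more than 1 cluster the brightest was kept. Genes brighter than the array median on 2 or more of 22 in vivo arrays, 11536 in all, were tested, and 8216 were dim. Group means of 12 in vivo groups, with the array number as a block, were fitted with limma (3.58.1, R 4.3.3, eBayes, two-sided), with 9 residual and 4.35 prior degrees of freedom. Benjamini-Hochberg adjustment ran over all genes tested. The number was used as a block since the comparison is paired by number. Deviations of same-numbered Tconv arrays at 0 h and 2 h correlated at 0.78 across genes, and over 45 pairs of in vivo groups from -0.13 to 0.78, with 36 over 0.1. These lay between 0.66 and 0.78 within Tconv and between -0.13 and 0.36 for a Tconv with a Treg group, so the shift between numbers was shared within a cell type more than between them. Tables were handled with Python 3.11.15 and pandas 2.3.3.

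The members and lists were chosen with earlier results of these data known. Named genes were the 20 largest called rises and 12 largest called falls of at least 0.5 on both numbers, up to 4 called members of each list by size or else the largest change, the 10 and 5 largest changes on number 1 alone, and the 6 highest and 6 lowest called differences from Treg. The rule left out symbols of predicted genes, of micro and small nucleolar RNAs and of receptor and immunoglobulin segments. Further list members, and the genes at the edges of the rule on number 1, were named after their values were seen. Alternatives covered the block, the arrays in the model, scaling, the filter, an offset of 32, the variance model and leaving out each array.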

Additional observations from a re-analysis of the deposited data

Results flagged for a closer look

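For 12 genes the Tconv response at 2 h differed from that of Treg by the limma test of the difference itself, and these are the 6 with the highest and the 6 with the lowest called difference. Values are the Tconv change minus the Treg change in log2 units, n = 2 arrays a group. The difference was 2.99 for Il2, 2.96 for Il2ra, 2.06 for Ifng, 1.79 for Il21, 1.76 for Irf4 and 1.75 for Rgs16. In Tconv these genes rose by 2.95, 4.56, 1.90, 2.25, 4.83 and 2.00, and in Treg the changes were -0.04, 1.59, -0.16, 0.46, 3.07 and 0.25. The difference was -1.95 for Socs2, -1.87 for Il23r, -1.73 for Slc14a1, -1.77 for Lif, -1.68 for Gadd45g and -1.55 for Hk2. In Tconv the changes were -0.44, 0.16, -0.63, 2.43, 1.85 and 1.40, and in Treg these genes rose by 1.51, 2.03, 1.10, 4.19, 3.53 and 2.95. Each of the 12 kept its direction without each of the 8 arrays in turn, and each was called in 1 or 2 of these 8 fits.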

How the results depend on the processing

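The 1728 calls became 1119 with no replicate block, 3254 with a replicate block by cell type, 446 over all 42 arrays with no block, 609 over all 42 with a replicate block by setting, and 2890 on the Tconv in vivo arrays alone. Leaving out 1 of the 4 arrays gave 667 to 1656. Other settings gave 1232 to 2176. The 25 differences from Treg became 14 with no replicate block, 112 with a replicate block by cell type, 14 with the sort as the block, 6 and 10 over all 42 arrays without and with a block, and 11 after median centring. Leaving out 1 of the 8 arrays gave 0 to 26. The 41 genes that changed on number 1 alone became 25 and 102 with an edge of 0.2 and 0.5 on number 2, and 23 with an offset of 32. The 238 calls in the lists became 198 with no replicate block, 246 after quantile normalization and 229 after median centring. The falls among them, 30 at first, became 20, 37 and 20. This total was not taken over the other settings, and the counts of single lists given above fell further without single arrays. The excess of other-cell markers on number 1 at 2 h, 0.82, was 0.88 after quantile normalization, the only alternative run for it. For 162 named genes 2570 comparisons with an alternative gave 2386 with the same call, 165 that lost it, 19 that gained it and 0 with a changed direction of a call. The cause of these shifts was not tested. A left-out array leaves a lone one, assumed to vary like the other groups. Changes of genes near the array median or below are compressed by the background that RMA models.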

Other observations

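Small nucleolar RNAs, a class read off after its values were seen, differed between the numbers. Of 52 tested, 6 were called higher and 0 lower by limma, against 8.23% and 6.75% of all genes tested. Their median change was 0.54 on number 1 and -0.15 on number 2, and 7 were higher by at least 2-fold on number 1 against 1 on number 2. At 2 h 49 of the 52 stood higher on number 1 than on number 2, and at 0 h 36 of them, against 5987 and 5978 of all 11536 genes. The class was chosen for this pattern, and no test was made.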
